A study of Rattus norvegicus with 48 samples.

Results

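The comparison described here asked how the RNA of subcutaneous fat differed between male adolescent rats that had exercised late in their active phase and sedentary rats sampled at the same time of day. Its members were the 12 subcutaneous adipose tissue (SAT) libraries of the late active phase, out of 48 libraries in the series: 6 from late control (LAC) rats and 6 from late exercise (LAE) rats. They were chosen by their labels for tissue, phase and exercise. LAE replicates 4 and 6 carried a second tissue profile and were left out of the main comparison, a choice made with results of these data known, which leaves 10 libraries, 4 exercised against 6 control. The late phase is a zeitgeber time (hours after lights on) of 23, and the fat was collected on postnatal day 61, 24 h after the last exercise session. The series also holds early control and early exercise rats (zeitgeber time 13), with 6 rats in each group. It holds visceral adipose tissue (VAT) libraries too, taken as those of the same rats. The labels name no strain, no genotype and no kind of exercise, so the sessions cannot be described further.

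Subcutaneous fat stores triglyceride beneath the skin and releases fatty acids when other tissues need fuel, and it secretes hormones such as leptin and adiponectin. Exercise draws on this store through catecholamines, and fat cells also run a circadian clock that times lipid storage and release over the day. The deposited table names genes by Ensembl ID and pairs none of them with a symbol, and 0 of its IDs were found in the table of rat genes used here. The defining markers of fat and of other tissues could therefore not be checked, and genes are described by their values, with 4 IDs named.

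The 12 late libraries held between 13163675 and 16909857 estimated counts, so that a gene with no count in a library could still stand at up to 0.177 to 0.228 CPM (counts scaled to a normalised library total; the limit is 3 counts and covers counting error only). A total of 829 genes stood over 4-fold above the median of the other 22 SAT libraries in both left-out libraries. These genes together made up 219118 CPM in LAE replicate 4 and 141652 CPM in LAE replicate 6. In the 4 exercised libraries kept they made up 37484 CPM in replicate 1, 13420 in replicate 2, 6462 in replicate 3 and 5588 in replicate 5, against 4611 to 9931 CPM in the 6 controls. LAE replicates 1 and 2 thus still held more of this profile than any late control. Early SAT libraries, which enter the fit, carried it too, with 60452 and 36497 CPM in early control replicates 5 and 6 and 42347 and 22222 CPM in early exercise replicates 2 and 6. The 829 genes are 5.72% of the 14505 tested. Of the 209 genes called higher below 2 were among them (0.957%), and of the 101 called lower 0. The 100 most abundant genes took 38.9% ± 1.38 of the counts in the 4 exercised libraries and 34.7% ± 1.51 in the 6 controls (SD), with no overlap (exact permutation test, two-sided, p = 0.00952, adjusted p = 0.0381 over 4 measures). Library totals, detected genes (15659 ± 443 against 16240 ± 375) and the summed profile did not pass this test, at adjusted p = 0.219, 0.114 and 0.114. In bulk tissue, fewer cells of a type and less RNA per cell cannot be told apart.

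Between late exercise and late control, small differences in many genes of subcutaneous fat passed the test in a fit that also holds the early libraries, and few did without them. In a fit of 22 SAT libraries, 12 of them early, 209 of 14505 genes were higher and 101 lower in the exercised rats (quasi-likelihood test in edgeR, called at an adjusted p under 0.05), which is 2.14% of the genes tested, 1.44% higher and 0.696% lower. The 10 late libraries alone gave 3 calls (0.0215% of 13935), and the 12 late libraries alone gave 0. The median change was a log2 difference of 0.51 among the genes that rose and -0.47 among those that fell, against 0.000768 over all genes tested. Of the genes that rose, 80 did so over 1.5-fold, 15 over 2-fold and 3 over 4-fold. Of those that fell, 32 did so over 1.5-fold and 11 over 2-fold. The largest fitted change among the called genes was a fall, the only fall over 4-fold, from 0.752 to 0.0524 CPM (log2 -3.60, adjusted p = 0.0496, edgeR); the exercised mean is under the level of 3 counts, so no fold is given. Both sets were well expressed, with a median of 36.2 CPM among the genes that rose and 34.1 CPM among those that fell, and 189 and 86 of them stood above 10 CPM. At the threshold the last gene inside had an adjusted p of 0.0496 and the first outside 0.0503.

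All 4 exercised libraries lay above all 6 controls for 127 of the 209 genes that rose, and below all 6 for 75 of the 101 that fell. Over all genes tested these shares were 2.23% above and 1.84% below, and since the same libraries made the calls these counts describe the calls and add no support. By its median over the 209 genes, each exercised library stood between 0.40 and 0.52 above the control mean on the log2(CPM + 2) scale. The controls stood between -0.10 and 0.20, with LAC replicate 5 the nearest to the exercised rats. Over the 101 genes the exercised libraries stood between -0.55 and -0.31 and the controls between -0.11 and 0.06.

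**Figure D1:**
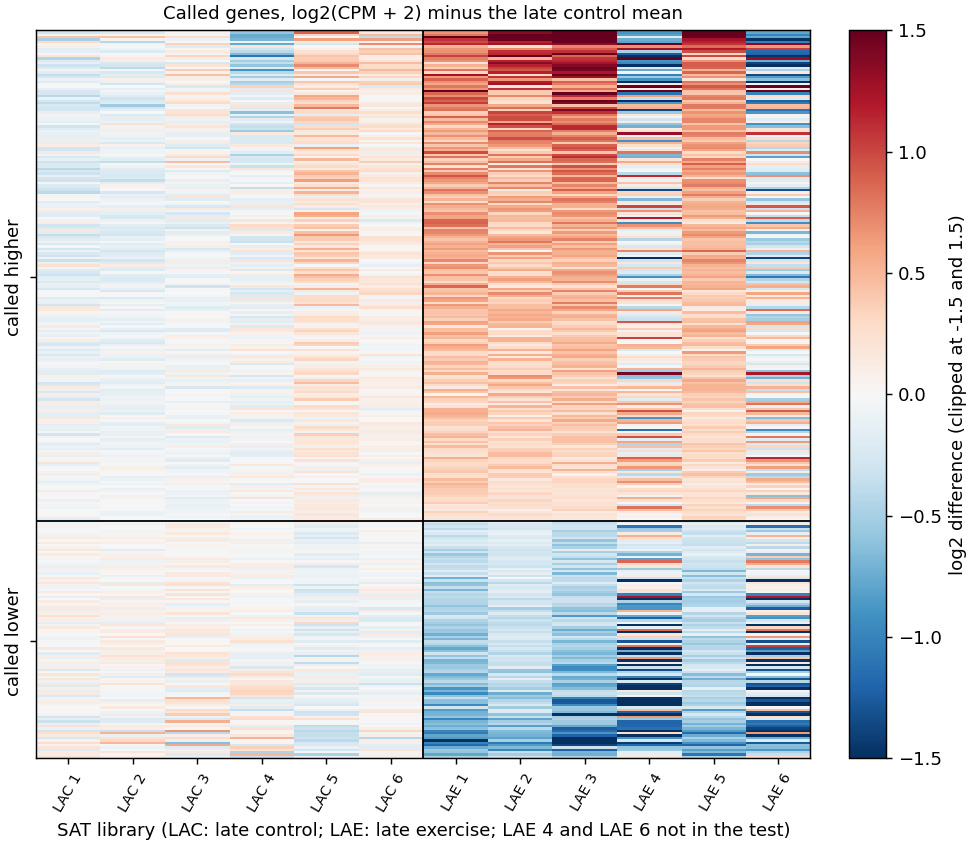
Each row is 1 of the 310 called genes and each column 1 of the 12 late SAT libraries; colour is the log2(CPM + 2) difference from the mean of the 6 late controls. LAE 1, 2, 3 and 5 are alike in both blocks, while LAE 4 and LAE 6, which were not in the test, follow them more in the lower block than in the upper one.

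The 4 IDs below are those with the largest rise and fall among called genes with at least 5 CPM in either group. ENSRNOG00000015376 stood at 1.22, 1.35, 2.02, 0.592, 5.19 and 2.26 CPM in controls 1 to 6, and at 4.13, 7.90, 17.6 and 10.2 CPM in LAE replicates 1, 2, 3 and 5. The groups overlapped only because LAC replicate 5 lay above LAE replicate 1. The means were 2.10 ± 1.63 (SD, n = 6) and 9.96 ± 5.66 CPM (n = 4), a 4.79-fold rise (log2 2.26 ± 0.507 SE, adjusted p = 0.0272, edgeR). In the left-out libraries this gene stood at 0.114 and 0.270 CPM, below every control, with 2 and 5 counts, and with these put back its adjusted p was 0.128 in the fit of all 24 SAT libraries and 0.287 in that of the 12 late libraries alone.

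ENSRNOG00000011917 had the largest fitted rise, 8.15-fold, but it was not shared among the exercised rats. It stood at 3.02, 0.769, 17.9 and 0.290 CPM in LAE replicates 1, 2, 3 and 5, against 0.306 to 1.31 CPM in the controls. Replicates 2 and 5 thus lay within the controls, and the mean of 5.49 ± 8.34 CPM (SD, n = 4) came mainly from replicate 3. The gene belongs to the second tissue profile, with 109 and 147 CPM in LAE replicates 4 and 6. Its log2 change was 3.03 ± 0.732 (SE, adjusted p = 0.0362, edgeR), and without LAE replicate 3 it was 1.01 (adjusted p = 0.401). In VAT it stood at 41.5 CPM in early control replicate 5 and 57.2 CPM in early exercise replicate 3, both outside the late groups.

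ENSRNOG00000050220 fell from 26.2, 25.2, 37.9, 20.4, 20.9 and 22.4 CPM in the controls to 10.01, 13.1, 8.33 and 9.87 CPM in LAE replicates 1, 2, 3 and 5. No exercised library reached the lowest control. The fall was 2.47-fold, from 25.5 ± 6.51 (SD, n = 6) to 10.3 ± 2.02 CPM (n = 4; log2 -1.30 ± 0.258 SE, adjusted p = 0.0191, edgeR). The left-out libraries lay low as well, at 10.01 and 15.4 CPM, and with these put back the adjusted p was 0.0110 in the fit of all 24 SAT libraries but 0.0947 in the fit of the 12 late libraries alone.

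ENSRNOG00000009465 stood at 75.2, 88.7, 39.4, 64.0, 52.7 and 65.7 CPM in the controls and at 30.5, 28.6, 14.2 and 32.4 CPM in the exercised rats. The groups again did not overlap, and the fall was 2.44-fold, from 64.3 ± 17.1 (SD, n = 6) to 26.4 ± 8.31 CPM (n = 4; log2 -1.29 ± 0.257 SE, adjusted p = 0.0191, edgeR). LAE replicates 4 and 6 stood at 21.8 and 24.8 CPM, among the kept exercised libraries. In the early phase the gene stood at 23.2 ± 5.77 CPM in control and 23.2 ± 6.14 CPM in exercised rats (SD, n = 6 each). Both early means are thus near the late exercise level, while the late controls stood above all of these groups.

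Leaving out LAE replicate 3 ended the call of all 4 IDs, with adjusted p = 0.102 for ENSRNOG00000015376, 0.401 for ENSRNOG00000011917 and 0.0649 for both genes that fell. A fit of the 10 late libraries alone did so too (adjusted p = 0.115, 0.156, 0.0615 and 0.0751, in the order in which the genes were described). All 4 kept their direction in both fits, which use libraries that made the calls. The rises were the less stable calls: 12 alternatives ended that of ENSRNOG00000011917 and 9 that of ENSRNOG00000015376, against 5 for ENSRNOG00000050220 and 4 for ENSRNOG00000009465. Leaving out LAC replicate 1, 2, 3 or 4 gave ENSRNOG00000015376 adjusted p = 0.0636, 0.0707, 0.0601 and 0.0522. Without LAC replicate 1, 2, 3 or 6 ENSRNOG00000011917 had adjusted p = 0.0822, 0.0896, 0.0797 and 0.0612, and without LAE replicate 1 0.0563 (edgeR). The replicate block gave adjusted p = 0.0617 for ENSRNOG00000015376, 0.224 for ENSRNOG00000011917 and 0.0617 for ENSRNOG00000009465. With limma voom adjusted p was 0.177 for ENSRNOG00000011917 and 0.0609 for ENSRNOG00000050220.

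**Figure D2:**
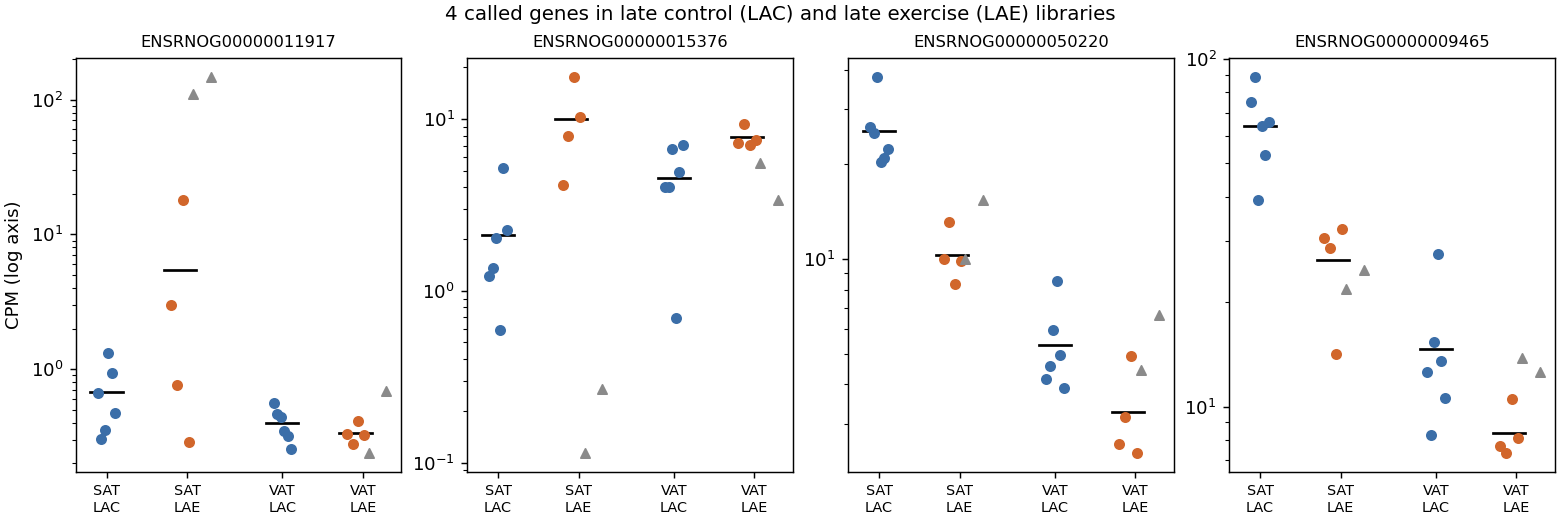
CPM on a log axis of the 4 named genes in each late library of SAT and VAT; blue circles are late control (LAC), orange circles LAE 1, 2, 3 and 5, grey triangles LAE 4 and 6, and black bars the means of the circles. Both genes that fell are lower in all 6 exercised SAT libraries than in any late control SAT library, whereas ENSRNOG00000015376 is at its lowest in LAE 4 and 6.

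The 12 genes with the smallest p comprised 8 that rose and 4 that fell, by 1.34 to 3.85-fold, and in all 12 the 4 exercised libraries lay outside the range of the 6 controls, a separation that the choice by p favours (2.23% above and 1.84% below over all genes). In the fit of all 24 SAT libraries 11 of the 12 kept their sign and 8 were called. The exception fell from 40.4 to 28.9 CPM but stood at 72.4 and 84.0 CPM in LAE replicates 4 and 6. The gene with the smallest p stood at 60.98, 60.4, 63.8, 58.2, 85.4 and 73.4 CPM in the controls and at 106, 143, 119 and 118 CPM in the exercised rats. It rose 1.82-fold (log2 0.86 ± 0.111 SE, adjusted p = 0.00186, edgeR). The gene with the next smallest p rose most among these 12. It stood between 54.8 and 126 CPM in the controls and at 273, 558, 304 and 357 CPM in the exercised rats, a 3.85-fold rise (log2 1.95 ± 0.289 SE, adjusted p = 0.00483, edgeR). In the left-out libraries it stood at 81.2 and 53.1 CPM, within the controls and just below them. Of the genes that fell, the one ranked first by p stood between 29.5 and 33.0 CPM in the controls and at 19.7, 24.3, 19.5 and 25.7 CPM in the exercised rats, with 18.1 and 16.9 CPM in the left-out libraries. Its log2 change was -0.48 ± 0.0744 (SE, adjusted p = 0.00483, edgeR).

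The left-out libraries were then read as rats that had no part in the calls, but against the 6 controls that did. That reference favours values on the side of the exercised rats. By their medians, the early SAT libraries stood at -0.202 to -0.0334 on the 101 genes and at -0.0182 to 0.236 on the 209. On the genes that fell they followed the other exercised rats, with medians of -0.34 in LAE replicate 4 and -0.35 in replicate 6. Of the 101 genes, 63 and 60 lay below all 6 controls in these libraries (62.4% and 59.4%), against 35.6% and 35.5% of all genes tested. On the genes that rose they did not, with medians of 0.09 and -0.01. Of the 209, 78 and 64 lay above all 6 controls (37.3% and 30.6%, against 36.7% and 36.4% of all genes), and 55 and 72 lay below them. The share above the controls was thus near or below the background share. The second tissue profile was highest in these 2 libraries, and its part in these values was not tested.

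With LAE replicates 4 and 6 put back, 6 against 6 in a fit of all 24 SAT libraries, 1126 genes were called higher (7.83%) and 528 lower (3.67%), in all 11.5% of the 14372 tested. The 12 late libraries fitted alone, also 6 against 6, gave 0 calls, with a smallest adjusted p of 0.0947 and 2982 genes at an unadjusted p under 0.05. The same 6 exercised and 6 control libraries thus gave 1654 calls or 0, depending on whether the early libraries entered the fit. In the fit of all 24 libraries 170 of the 310 genes were called again, which is 54.8% of them and 10.3% of the calls with all libraries. They comprised 105 of the 209 that rose and 65 of the 101 that fell. In that fit the genes that rose all kept their sign, and their median log2 change went from 0.51 to 0.40. Among those that fell 96 of 101 kept it, with a median of -0.48, and a gene not tested in that fit counts as not kept.

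Visceral fat, taken as that of the same rats by group and replicate number, gave separate libraries in which to read these genes. Of the 209 genes that rose in SAT, 208 were tested in VAT, and 207 of them (99.5%) had a positive log2 change there between the same 4 exercised and 6 control rats. The background share of positive changes was 45.4% of the 13910 genes tested in both depots. Of the 101 genes that fell, 99 (98.0%) had a negative change, against 54.6% of all genes. The changes in VAT were smaller, with medians of 0.28 and -0.21. By library, the medians of the 4 exercised rats (0.21 to 0.38) lay above those of the late controls (-0.22 to 0.13) for the 208 genes. For the 101 they met, at -0.115 in both LAE replicate 3 and LAC replicate 1. Early VAT libraries reached 0.200 and -0.237. At an unadjusted p under 0.05, 124 of the 208 were higher in VAT (59.6%, against 7.61% of all genes) and 35 of the 101 lower (34.7%, against 6.30%). The 3 exceptions had VAT changes of -0.04 ± 0.0682, 0.01 ± 0.163 and 0.58 ± 0.703 (log2 ± SE), each within its error of 0.

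Few of these differences passed the threshold in VAT itself. Only 8 of 14058 genes did so (0.0569%; edgeR, with 7 higher and 1 lower), and 2 of the 8 were among the 310. Leaving out 1 of 10 rats took the 8 to 0 in 7 fits, for LAC replicates 2, 3, 4 and 5 and LAE replicates 2, 3 and 5, and to 3 without LAE replicate 1. Of the 8, 7 changed in the same direction in SAT, with log2 differences of 0.29 to 0.77. Across all genes tested in both depots, 69.1% had the same sign, with Pearson's r = 0.303 and Spearman's rho = 0.495. Across the called genes r was 0.819, but these lack small SAT changes, a choice that raises r, so the 2 values of r cannot be compared. Genes are not independent replicates. Both depots were taken to come from the same rats, so anything else that set these 4 rats apart from the 6 controls cannot be told apart from exercise.

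**Figure D3:**
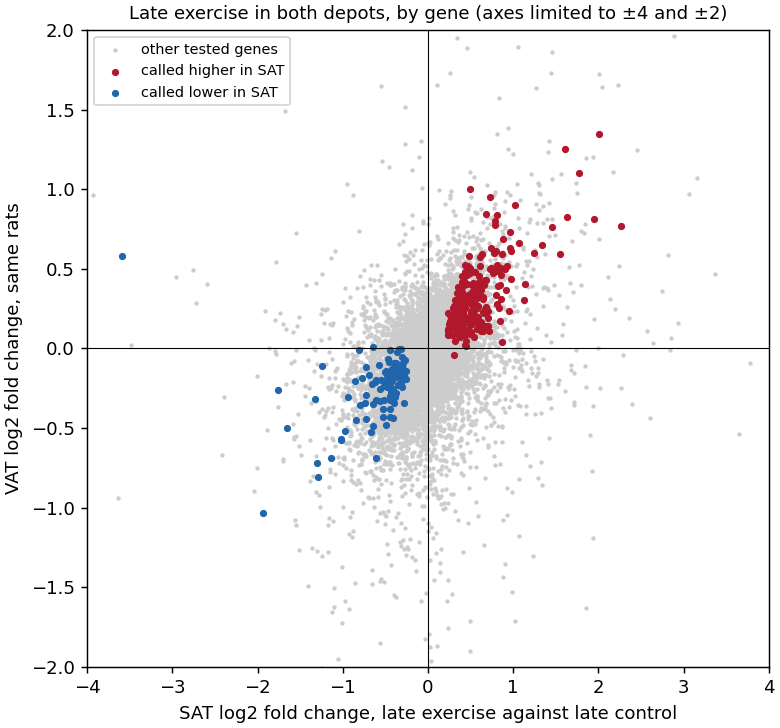
Each point is a gene, with its log2 fold change between late exercise and late control in SAT on the horizontal axis. The vertical axis gives that in VAT, taken as the same rats by number. Red and blue points were called in SAT. The red points lie above the horizontal line with 1 exception and the blue points below it with 2.

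The VAT libraries of rats 4 and 6 had no part in either fit. In rat 4, 195 of the 208 genes lay above the mean of the VAT controls (93.8%, against 51.2% of all genes), and 62 of the 101 below it (61.4%, against 48.8%). In rat 6, 52 of the 208 lay above, against 49.0% of all genes, and 43 of the 101 below (42.6%, against 51.0%). Rat 4 thus lay on the side of the other exercised rats for most of these genes, and rat 6 on the opposite side for most. In rats 1, 2, 3 and 5, 202, 204, 181 and 197 of the 208 lay above the VAT control mean, against 48.6%, 50.1%, 49.6% and 50.3% of all genes. Of the 101, 95, 92, 86 and 81 lay below it, against 51.3%, 49.9%, 50.3% and 49.6%. With all 6 exercised rats in the VAT fit, 205 of 208 and 88 of 101 kept their sign, with medians of 0.23 and -0.14.

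**Figure D4:**
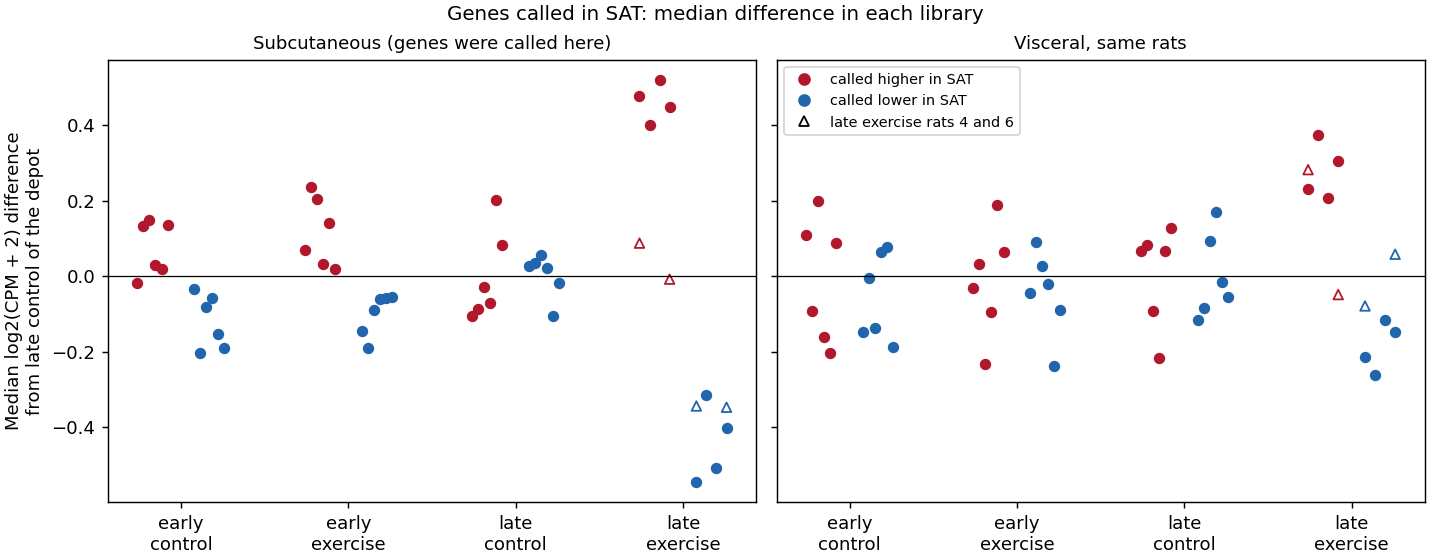
Median log2(CPM + 2) difference from the late control mean of the depot over the 209 genes called higher in SAT (red) and the 101 called lower (blue), 1 point per library; open triangles are late exercise rats 4 and 6. In SAT the late exercise circles stand apart by the choice of genes; in VAT, where the genes were not chosen, they stand at 0.21 to 0.38 and -0.26 to -0.12, against -0.22 to 0.13 and -0.12 to 0.17 in the late controls.

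Of the named genes, 3 were tested in VAT, and these had the same direction there but did not pass the threshold. ENSRNOG00000011917 was too low to be tested, at 0.399 ± 0.112 CPM in VAT late control (SD, n = 6) and 0.339 ± 0.0569 CPM in late exercise (n = 4), means in the other direction from its rise in SAT. ENSRNOG00000015376 stood at 4.56 ± 2.29 CPM in VAT late control (SD, n = 6) and 7.82 ± 1.07 CPM in late exercise (n = 4; log2 0.77 ± 0.396 SE, adjusted p = 0.386, edgeR). ENSRNOG00000050220 stood at 5.35 ± 1.72 and 3.27 ± 1.15 CPM (log2 -0.72 ± 0.395 SE, adjusted p = 0.420, edgeR), and ENSRNOG00000009465 at 14.6 ± 6.72 and 8.41 ± 1.42 CPM (log2 -0.81 ± 0.402 SE, adjusted p = 0.372, edgeR). Of the 12 genes with the smallest p in SAT, all 12 had the same sign in VAT.

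Early exercise in SAT gave changes near 0 for these genes. The late contrast itself holds no early library, but the early libraries set part of the spread by which the genes were called. The early values are thus not independent of the choice of genes. The median log2 change of the 209 genes between early exercise and early control was 0.05 and that of the 101 was 0.00450, against 0.00507 over all genes. Of the 209, 144 were higher after early exercise (68.9%, against 51.5% of all genes), and of the 101, 45 were lower (44.6%, against 48.5%). At an unadjusted p under 0.05, 1 of the 209 was higher and 1 of the 101 lower after early exercise. Between early exercise and early control edgeR called 0 of 14505 genes (0.00%), while DESeq2 called 5 and limma voom 0. In edgeR 282 genes (1.94%) had an unadjusted p under 0.05, fewer than this threshold gives by chance. The late contrast of the same fit had 2902 (20.0%).

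The difference between the late and the early effect passed its own test for 4 genes (0.0276% of 14505, edgeR, interaction, adjusted p = 0.0497 for each). All 4 were among the 310, an overlap that was favoured because the interaction holds the same late difference from the same fit. The gene with the next smallest p above stood at 229 ± 91.3 CPM in early control, 193 ± 55.6 in early exercise and 96.8 ± 29.3 in late control (SD, n = 6 each), and at 373 ± 128 CPM in late exercise (n = 4). Its interaction was 2.19 on the log2 scale. The gene with the smallest p stood at 73.1 ± 9.29, 70.6 ± 7.78, 67.0 ± 10.5 and 122 ± 15.7 CPM in the same order of groups, with an interaction of 0.91. The other two had interactions of 0.62 and -0.56, the second being the gene that fell from 31.1 ± 1.32 to 22.3 ± 3.15 CPM late and stood at 27.5 ± 1.70 and 29.0 ± 1.30 CPM in the early groups. Leaving out 1 library ended all 4 calls in 18 of 22 fits, while 13 genes were called without LAC replicate 5 and 7 without early control replicate 5.

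Phase was read in another set of libraries. In VAT of sedentary rats, 19 of the 208 genes that rose (9.13%) and 17 of the 101 that fell (16.8%) differed between late and early control, against 10.7% of all genes tested there.

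The number of called genes depended strongly on the fit and on single libraries. A fit of the 10 late libraries alone called 3 genes (2 higher and 1 lower, with 2366 at an unadjusted p under 0.05), 2 of which were among the 310. In that fit all 209 genes that rose and 100 of the 101 that fell had an unadjusted p under 0.05 in the same direction. Since the same libraries enter both fits, this restates the data with another estimate of the spread. The count of 310 went to 95, 61, 96 and 131 without LAC replicate 1, 2, 3 or 4, and to 1004 without LAC replicate 5. It went to 96, 539 and 50 without LAE replicate 1, 2 or 3. The direction held for all 310 genes in each of these fits. Each shares most of its libraries with the fit that made the calls, so a kept direction was favoured and adds no support. With the summed profile as a covariate 169 genes were called, and 44 without every SAT library in which the profile exceeded 20000 CPM. That limit took out LAE replicate 1 but not LAE replicate 2, at 13420 CPM. All 310 again kept their direction.

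**Figure D5:**
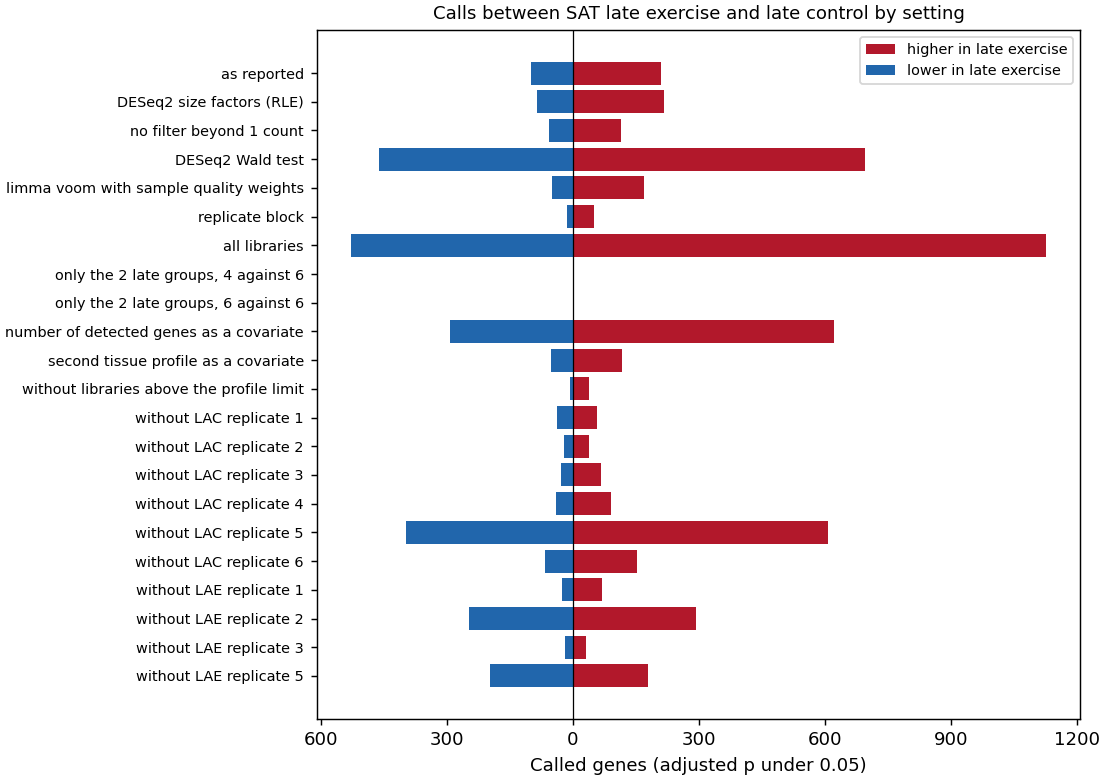
Number of genes called higher (red, to the right) and lower (blue, to the left) between late exercise and late control in SAT under each setting; the first bar is the comparison as reported, with 209 and 101. The bars run from 0 in the fit of the 12 late libraries alone to 1126 and 528 in the fit of all 24 SAT libraries.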

How the data were processed

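PolyA-selected RNA of both depots went into single-end libraries read to 50 nt, per the labels' protocols. The table the authors deposited holds Salmon's estimated counts in whole numbers for 23481 Ensembl IDs, not scaled for depth. The submitters' processing notes list Salmon 1.4.0 and build rn6; which annotation was used is not given in the sources used here. Columns were matched to samples by library name, and replicates are separate rats, per the labels. SAT and VAT libraries with the same group and replicate number were taken as the same rat, which the labels do not state outright.

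The test was edgeR 4.0.16 (R 4.3.3) with TMM scaling, filterByExpr (99.9% of counts kept), and a quasi-likelihood fit of the 4 SAT groups without LAE replicates 4 and 6 (22 libraries), which share 1 estimate of the spread; Benjamini-Hochberg adjustment ran over all genes. VAT was fitted in the same way without those 2 rats. Each SE was derived from the fold change and its F statistic. The script was tested on simulated data. Late SAT libraries of a group differed beyond sampling noise (chi-square per degree of freedom 11.3 to 553 by pair). The values above 131 came from pairs with LAE replicate 4 or 6.

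The libraries left out, the members and the lists were chosen with earlier results of these data known. The 45 gene lists and the genes to be named by symbol were not analysed, since IDs could not be paired with symbols; the rule then named the 2 largest rises and 2 largest falls. It was applied to called genes with a mean of at least 5 CPM in either group. No sequences are given for the same reason. Alternatives were DESeq2 1.42.0, its size factors, limma 3.58.1 voom, no filter, a replicate block, other sets of libraries and, added after seeing the data, covariates.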

Additional observations from a re-analysis of the deposited data

Results flagged for a closer look

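Of 20 sets of values tested for a library far from the rest of its group, 5 had one, where chance gives about 1 in 20 for normally distributed values. The sets of the 4 named genes were chosen by their change in these libraries, so that rate need not hold for them. The summed profile was highest among controls in LAC replicate 6, at 9931 CPM. Detected genes were highest among the 4 exercised libraries in LAE replicate 2, at 16323. ENSRNOG00000015376 was highest among controls in LAC replicate 5, at 5.19 CPM, and ENSRNOG00000050220 in LAC replicate 3, at 37.9 CPM. ENSRNOG00000011917 was highest among the exercised libraries in LAE replicate 3, at 17.9 CPM.

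In the main fit 4 genes passed the interaction test of exercise and phase, with log2 interactions of 0.62, -0.56, 0.91 and 2.19 (edgeR, adjusted p = 0.0497 for each). These calls were not stable: the count was 0 with all libraries and 0 to 13 when 1 library was left out.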

How the results depend on the processing

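All 310 genes kept their direction in each of the fits run but 3: with all libraries 305 did, with the 10 late libraries alone 309 and with the 12 late libraries alone 304. A gene not tested in a fit counts here as not kept. These fits share libraries with the one that made the calls, which favours a kept direction. Counts are given as higher and lower. They were 1126 and 528 with all libraries, 696 and 463 with the DESeq2 Wald test, 169 and 49 with limma voom, 114 and 58 with no filter, 2 and 1 with the late groups alone (4 against 6), and 0 and 0 with the late groups alone (6 against 6; 2982 genes at an unadjusted p under 0.05). They were 621 and 292 with detected genes as a covariate, 116 and 53 with the profile as a covariate, and 37 and 7 without libraries above the profile limit. DESeq2 size factors gave 218 and 85. Leaving out 1 library gave 32 to 607 higher and 18 to 397 lower.

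The replicate block gave 51 and 15, 0 for the interaction, 0 for early exercise and 1 in VAT. Same-numbered late rats did not deviate together (correlations of -0.221, 0.0641, 0.0126 and 0.158). The numbers were taken to name rats without pairing them across groups, which these few values cannot settle.

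The 4 interaction genes went to 0 with all libraries, with DESeq2 size factors, with no filter, with the profile as a covariate and without libraries above the profile limit, to 1 with limma voom, to 14 with the detected-genes covariate and to 145 with DESeq2; leaving out 1 library gave 0 to 13. The 8 VAT genes went to 0 with all libraries, 4 with no filter, 79 with the detected-genes covariate, 220 with DESeq2 and 347 with limma voom; leaving out 1 library gave 0 to 12. Early exercise had 5 with DESeq2 and 0 in each of the other fits. The cause of these moves was not tested. None of the 4 named genes changed direction in any of its fits. Depth limits values under 0.177 to 0.228 CPM, where a library holds fewer than 3 counts.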
